A study of Mus musculus with 4 samples.

Results

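The glucocorticoid receptor gene Nr3c1 and 6 genes that glucocorticoid hormone raises in many tissues (Fkbp5, Tsc22d3, Sgk1, Klf9, Dusp1 and Cebpd) were examined in whole hearts of wild-type and heterozygous mice. Every probe set whose only annotated gene symbol was 1 of these 7 names was taken, which gave 8 of the 12422 probe sets on the array other than controls. Klf9 had 2 probe sets and the other genes had 1. After the dimmest 40% of probe sets were set aside, 7453 probe sets were tested, among them 7 of these 8, and all 7 genes but Tsc22d3 were represented. Total RNA of 4 samples was hybridised to 1-colour oligonucleotide arrays, 2 samples for each genotype. Each sample was a pool of 5 hearts from adult males aged 8 to 16 weeks on a mixed 129/Black Swiss background. Nothing in the labels says that the pools, numbered 1 and 2, were made from different animals, so the spread behind a p-value is only that between these 4 samples, which may be technical. Pooling hides the spread between single hearts.

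Glucocorticoids of the adrenal gland enter cells and bind the receptor NR3C1, which is held ready by chaperones of the HSP90 family and their co-chaperones. The bound receptor moves to the nucleus and binds DNA at glucocorticoid response elements, pairs of inverted half-sites, where it raises some genes and holds down others. In heart muscle cells the receptor acts in maturation, contraction and fuel use, and the hormone follows a daily rhythm. Glucocorticoids also act strongly on lymphocytes, and immature thymocytes are among the cells most sensitive to them.

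The sequence just before the start of transcription was examined for 5 of the 7 genes, all but Nr3c1 and Cebpd. It came as 12 windows of RefSeq (GRCm38.p6, the C57BL/6J reference, so not the strain measured). Every window ran from 250 bases before an annotated start to 50 bases after it, and Sgk1 had several because it has several starts. The upstream parts of 4 windows are shown, that of Sgk1 for the only complete response element found near these genes, those of Klf9 and Fkbp5 because these genes differed between the genotypes, and that of Dusp1 for its cAMP element. Capitals mark matches, on either strand, to the response element (AGAACA, any 3 bases, TGTTCT), its half-site AGAACA, the cAMP element TGACGTCA, the E-box CACGTG, the CCAAT box CCAAT and the TATA box TATAAA.
Sgk1 (chr10:21993640-21993889, plus strand): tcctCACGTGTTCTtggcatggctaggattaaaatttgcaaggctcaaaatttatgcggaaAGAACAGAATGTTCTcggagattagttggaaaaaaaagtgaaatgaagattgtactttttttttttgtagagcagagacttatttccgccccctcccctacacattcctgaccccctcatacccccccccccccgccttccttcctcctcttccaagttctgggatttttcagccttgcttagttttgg
Klf9 (chr19:23140976-23141225, plus strand): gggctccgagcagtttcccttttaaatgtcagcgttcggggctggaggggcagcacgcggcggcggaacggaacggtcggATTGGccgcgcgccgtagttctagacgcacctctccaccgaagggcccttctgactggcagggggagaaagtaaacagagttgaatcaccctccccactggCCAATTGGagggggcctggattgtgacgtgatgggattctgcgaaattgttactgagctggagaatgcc
Fkbp5 (chr17:28486150-28486399, minus strand): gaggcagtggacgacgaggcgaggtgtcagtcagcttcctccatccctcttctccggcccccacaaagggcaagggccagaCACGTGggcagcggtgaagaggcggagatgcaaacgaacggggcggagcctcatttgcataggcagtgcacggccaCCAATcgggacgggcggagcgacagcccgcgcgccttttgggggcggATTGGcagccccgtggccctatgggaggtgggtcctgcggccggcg
Dusp1 (chr17:26508473-26508722, minus strand): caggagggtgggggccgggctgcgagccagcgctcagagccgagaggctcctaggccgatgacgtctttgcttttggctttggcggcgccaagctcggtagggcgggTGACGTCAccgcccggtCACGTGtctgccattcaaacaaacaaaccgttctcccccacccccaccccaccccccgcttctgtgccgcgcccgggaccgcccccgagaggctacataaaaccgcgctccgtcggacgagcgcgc

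A complete response element stood in 1 of the 6 Sgk1 windows, at chr10:21993701-21993715, beginning 189 bases before that start, and reads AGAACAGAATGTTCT. Only 3 of the 32851 windows of all genes held this element (0.00913%), whereas 19% held at least 1 half-site. The same Sgk1 window held 3 half-sites, of which 2 are the arms of the complete element and the other overlaps the E-box. The windows of Fkbp5, Klf9 and Dusp1 held no half-site. In the Klf9 window there were 3 CCAAT boxes, of which 2 on opposite strands overlap, and in the Fkbp5 window there were 2 and an E-box. The Dusp1 window held a cAMP element beginning 143 bases before the start, a motif of 1.79% of windows, and an E-box, a motif of 7.15%. CCAAT boxes were in 37.4% of windows. A match is a run of letters and shows no binding, and no match says only that these letters are absent from the window.

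Heterozygous pools carried less Fkbp5 and more Klf9 and Cebpd than wild-type pools, while Nr3c1, Sgk1 and Dusp1 did not pass the test. Of the 7 tested probe sets, 3 were higher and 1 was lower at an adjusted p under 0.05, where 38.3% of all tested probe sets were called (17.9% higher and 20.4% lower). With so broad a difference between the genotypes, 4 calls among 7 probe sets do not set these genes apart. Wild-type and heterozygous pools were fully apart in 6 of the 7, 4 with the heterozygous pools above and 2 with them below, where 70.1% of all tested probe sets were apart in this way (34.6% above and 35.5% below). Adjusted p-values are those of limma over all tested probe sets, signals are linear intensities, and log2 changes are heterozygous minus wild type. Folds of genes were computed from the log2 changes.

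Nr3c1 encodes the receptor itself. Wild-type pools gave signals of 487.2 and 601.7, and heterozygous pools gave 272.6 and 313.6. Both heterozygous pools lay below both wild-type pools. The mean went from 544 ± 81.0 to 293 ± 29.0 (SD, n = 2), a log2 change of -0.89 (SE 0.33, 95% interval -1.63 to -0.15) with an adjusted p of 0.0585, which did not pass. The heterozygous mean lay below both genotype means of the untested Tsc22d3 (305 and 391), so Nr3c1 passed the brightness filter through its wild-type pools. The call was made with arrays centred on the sarcomere genes (log2 change -1.56, adjusted p = 0.00311) and without the mean-variance trend (adjusted p = 0.0195).

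Fkbp5 encodes FKBP51, a co-chaperone that lowers the receptor's affinity for hormone and whose gene the receptor induces, so that it closes a feedback loop. Wild-type pools gave signals of 3802.6 and 4886.3, and heterozygous pools gave 1713.9 and 1773.3. The lowest wild-type value was 2.14 times the highest heterozygous value. The mean went from 4344 ± 766 (SD, n = 2) to 1744 ± 42.0. The log2 change was -1.31 (SE 0.17, 95% interval -1.70 to -0.91, adjusted p = 0.000660), a fall of 2.47-fold. Of all tested probe sets, 90.2% had a smaller change in size. Fkbp5 was lower with each pool left out in turn, with log2 changes of -1.49 to -1.13.

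Klf9 encodes a zinc finger transcription factor that is induced by glucocorticoid and also follows the daily rhythm. On its brighter probe set wild-type signals were 3822.5 and 4380.8 and heterozygous signals 7891.5 and 9990.2. On the dimmer probe set they were 1200.3 and 1598.9 against 2354.6 and 2717.3. On both, each heterozygous pool exceeded each wild-type pool, by 1.80 times and 1.47 times between the nearest values. Klf9 rose 2.17-fold on the brighter probe set (log2 change 1.12, SE 0.17, adjusted p = 0.00109) and 1.83-fold on the dimmer one (log2 change 0.87, SE 0.20, adjusted p = 0.00815). The call on the dimmer probe set ended without heterozygous pool 2 (log2 change 0.77, adjusted p = 0.0782), and both ended when no dim probe sets were filtered out (adjusted p = 0.0546 and 0.0975).

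Cebpd encodes C/EBP delta, a transcription factor of the acute phase and of early fat cell differentiation. Wild-type pools gave signals of 2364.8 and 2572.4, and heterozygous pools gave 4676.5 and 4661. The pools of either genotype lay close together and far from those of the other. The mean of 2469 ± 147 (SD, n = 2) rose 1.89-fold to 4669 ± 10.96, with a log2 change of 0.92 (SE 0.15, 95% interval 0.58 to 1.26, adjusted p = 0.00170). It was called higher with each pool left out in turn (log2 changes of 0.86 to 0.98).

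Sgk1 encodes a kinase that responds to serum and to steroid hormones and acts on ion channels and transporters. Wild-type pools gave signals of 2492.4 and 3042.5, and heterozygous pools gave 3380.1 and 3709.7. The heterozygous pools were above the wild-type pools, the nearest values differing by only 1.11 times. The log2 change of 0.36 (SE 0.17, 95% interval -0.016 to 0.74) had an adjusted p of 0.118 and did not pass, although it passed with arrays shifted to a common median (0.54, adjusted p = 0.0262). This is the gene with the complete response element printed above.

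Dusp1 encodes MKP-1, a phosphatase that switches off MAP kinases and mediates part of the anti-inflammatory action of glucocorticoids. It is also an immediate early gene. Wild-type pools gave signals of 5368.9 and 8514.5, and heterozygous pools gave 7093.3 and 12887.2. The genotypes overlapped, since heterozygous pool 1 was below wild-type pool 2. The log2 change was 0.50 (SE 0.29, 95% interval -0.16 to 1.16, adjusted p = 0.208). It passed without wild-type pool 2 (0.83, adjusted p = 0.0415) and ranged from 0.069 to 0.93 over the pools left out.

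Tsc22d3 encodes GILZ, the glucocorticoid-induced leucine zipper, which restrains inflammatory transcription factors. Its wild-type signals of 242.9 and 368 overlapped its heterozygous signals of 325.7 and 455.4. They fell among the dimmest 40% of probe sets, so no test was made in the main analysis. With no such filter the log2 change was 0.37 (adjusted p = 0.589).

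**Figure D1:**
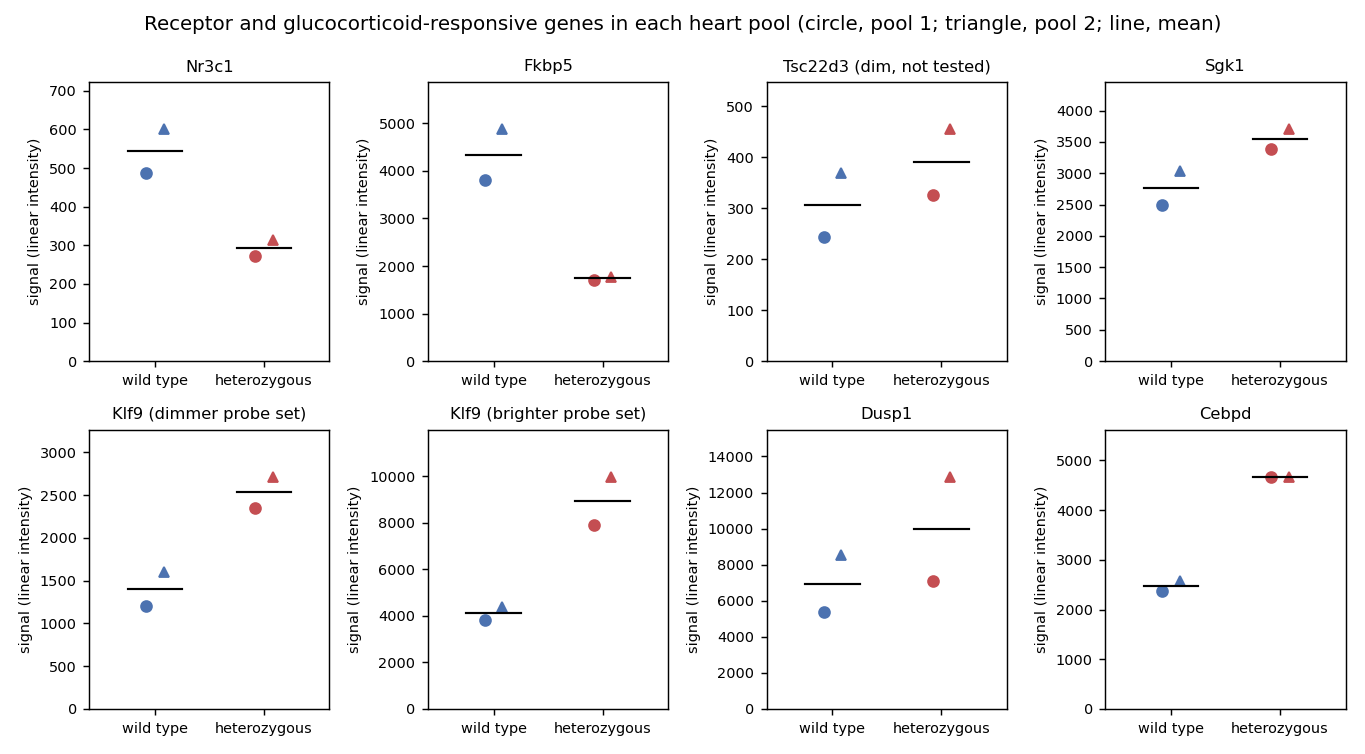
Linear signal of each of the 8 probe sets of Nr3c1, Fkbp5, Tsc22d3, Sgk1, Klf9, Dusp1 and Cebpd in every pool, wild type in blue and heterozygous in red, with circles for pool 1, triangles for pool 2 and a line at the mean of 2 pools. Fkbp5 is lower and both Klf9 probe sets and Cebpd are higher in the heterozygous pools, while the Dusp1 and Tsc22d3 pools overlap.

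Within a genotype, the pools numbered 2 tended to carry more of these transcripts than the pools numbered 1. In 6 of the 7 tested probe sets pool 2 exceeded pool 1 in both genotypes, as it did in 30.1% of all tested probe sets. Dusp1 varied most, with pool 2 at 1.59 times pool 1 in wild type and 1.82 times in heterozygous mice. Tsc22d3 followed with 1.52 and 1.40 times. Cebpd varied least, with 1.09 and 0.997 times. Pool 2 of one genotype is not tied to pool 2 of the other by the labels.

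Over the tested probe sets, log2 signals correlated at 0.971 and 0.970 within the genotypes and at 0.845 to 0.856 between them. The same pools differed in markers of cell types. Of 28 thymocyte markers, 23 were tested, of which 22 were lower in the heterozygous pools. The other did not pass, and the median of the list was -2.59 on the log2 scale. Their summed signal reached 202310 and 199869 in wild type but 29897 and 29422 in heterozygous pools. Cd5, a surface protein of T cells, had 3199.8 and 2889.9 against 551.4 and 463.2. Ccr9, a chemokine receptor of thymocytes, had 2514.3 and 2677.7 against 401 and 444.5. In both genes the wild-type pools lay far above the heterozygous ones, in samples whose labels name heart as the tissue. Of 5 tested markers of thymic epithelium 4 were lower and 1 did not pass (median log2 change -2.76), with summed signals of 18838 and 16853 in wild type and 3108 and 2942 in heterozygous pools. Of 6 markers of lung epithelium 4 were on the array and only 2 were bright enough to test, both of them higher (median log2 change 1.78). The part of these tissues in the values of the glucocorticoid-responsive genes was not tested.

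Of 22 tested sarcomere genes, the contractile genes that define heart muscle, 16 were higher, none was lower and 6 did not pass (median log2 change 0.67, or 1.59-fold). Tnnc1, cardiac troponin C, rose from 62863.3 and 56690 to 92231.8 and 97385.7. Myl3, a ventricular myosin light chain, rose from 74782.2 and 63824.6 to 107175 and 112905. The Tnnc1 call ended without heterozygous pool 2 (log2 change 0.63), as did the Myl3 call (0.63), which also ended without heterozygous pool 1 (0.71). Endothelial markers (9 of 11 higher, none lower, median log2 change 0.91) and fibroblast markers (9 of 10 higher, none lower, 0.77) were higher as well. Of 10 tested macrophage markers 1 was higher and 1 lower, and of 8 B cell markers 6 were lower and none higher. In bulk RNA, fewer cells of a type and less RNA per cell cannot be told apart.

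Set against these shifts, the log2 changes of Fkbp5 (-1.31) and Nr3c1 (-0.89) lay on the side of the thymocyte genes (-2.59), while those of Klf9 (1.12 and 0.87) and Cebpd (0.92) lay at or beyond the sarcomere median (0.67). Sgk1 (0.36) and Dusp1 (0.50) lay between no change and the sarcomere median. When arrays were centred on the sarcomere genes, Klf9 was called higher on its brighter probe set alone (log2 change 0.44), and the changes of its dimmer probe set (0.19, adjusted p = 0.437) and of Cebpd (0.25, adjusted p = 0.197) no longer passed. Sgk1 and Dusp1 turned to -0.31 and -0.17, and Fkbp5 reached -1.98. In that setting 183 of all 7453 tested probe sets were called higher and 4214 lower. Centred on the thymocyte genes, Nr3c1 fell among the dimmest probe sets and was not tested, while Tsc22d3 was. All 7 probe sets tested there were called higher, Fkbp5 (1.35, adjusted p = 5.20e-05) and Tsc22d3 (3.02, adjusted p = 5.08e-05) among them. So were 7278 of all 7453 probe sets tested in that setting, and these calls therefore do not set the genes apart. The direction of Fkbp5 thus differed with the genes held constant, and the part of the cell type markers in any of these changes was not tested.

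**Figure D2:**
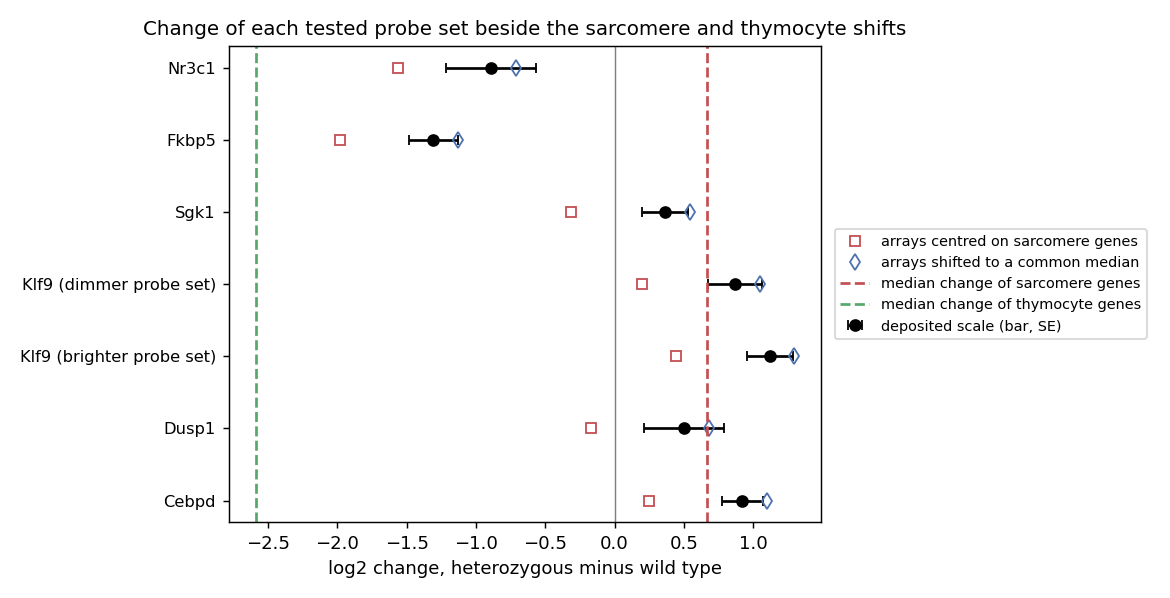
Log2 change (heterozygous minus wild type) of each tested probe set on the deposited scale, with its SE as a bar, and as open symbols after arrays were centred on the sarcomere genes or shifted to a common median. Dashed lines mark the median change of the sarcomere genes (0.67) and of the thymocyte genes (-2.59). Fkbp5 and Nr3c1 lie left of 0 in these settings, and Sgk1 and Dusp1 cross 0 when arrays are centred on the sarcomere genes.

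Of 40 other genes that glucocorticoid raises in many tissues, 31 were tested, of which 11 were higher in the heterozygous pools, 3 were lower and 17 did not pass. Of all tested probe sets 17.9% were called higher and 20.4% lower. Under sarcomere centring the counts turned to 6 higher and 10 lower and the median of this list to -0.24. Among all 7453 tested probe sets 183 were then higher and 4214 lower, with a median of -0.69. On the deposited scale the median log2 change of the list was 0.43, beside a median of 0.00 over all tested probe sets. Changes were positive in 25 of its genes and negative in 6. Among those that did not pass, Ddit4 (0.029), Pck1 (-0.0094) and Txnip (0.073) changed little on their brightest probe sets. Nfkbia had -0.53 and Errfi1 had 0.43 on theirs. These genes that did not pass were named after their values were seen. Per1, a clock gene that the receptor induces directly, had wild-type signals of 348.9 and 571.7 and heterozygous signals of 1527 and 1523. It rose 3.41-fold (log2 change 1.77, SE 0.27, adjusted p = 0.00113), but did not pass with dim probe sets kept (adjusted p = 0.0671). Zbtb16, a transcription factor gene (PLZF) used as a marker of glucocorticoid exposure, had 2685.8 and 2822.5 against 8716.3 and 8485.5 on its brighter probe set. It rose 3.12-fold there (adjusted p = 6.46e-05), while its dimmer probe set did not pass (0.40 on the log2 scale, adjusted p = 0.494).

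Pdk4, which restrains the use of pyruvate, rose 3.86-fold, from 3743.1 and 3771.5 to 15033.1 and 13990.6 (adjusted p = 2.30e-05). Gpx3, an extracellular glutathione peroxidase, rose 2.49-fold, from 16365.1 and 14896.2 to 36704.5 and 41190.6 (adjusted p = 0.000149). On the probe sets with these values, each heterozygous pool of Per1, Zbtb16, Pdk4 and Gpx3 lay above each wild-type pool. The pools overlapped on the dimmer Zbtb16 probe set (221.1 and 449.9 against 381.7 and 451.3). Mt1 and Mt2, metallothioneins that bind zinc, rose 2.47-fold and 1.47-fold. Cebpb, a close relative of Cebpd, rose 2.41-fold, and Lpin1, a phosphatase of lipid synthesis, rose 1.69-fold. Sesn1 (1.54-fold), Cdkn1c (1.72-fold) and Ptgds (2.01-fold on the probe set with the highest signal) made up the rest. Mt1, Mt2, Cebpb, Lpin1, Sesn1, Cdkn1c and Ptgds, and Bcl6 and Il1r2 below, were named after their values were seen.

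The 3 that fell are known from blood cells. Il7r, the interleukin 7 receptor of lymphocytes, fell 5.32-fold, from 1428.1 and 1287 to 206.2 and 315.1 (adjusted p = 0.000338). Bcl6, a repressor of lymphocyte genes, fell 1.82-fold, and Il1r2, a decoy receptor for interleukin 1, fell 2.10-fold. The heterozygous means of Il7r (261) and Il1r2 (250) lay below both genotype means of the untested Tsc22d3 (305 and 391). Both genes thus passed the brightness filter through their wild-type pools, and the size of their falls is uncertain. In the same pools the thymocyte markers had a median log2 change of -2.59 and the part of those cells was not tested. Over the pools left out in turn, the median log2 change of the induced list ran from 0.32 to 0.47. The Il1r2 call ended whichever pool was left out (log2 changes of -1.21 to -0.94), and the Mt2 call ended without any pool but wild-type pool 1 (0.47 to 0.64). On the probe set with the highest signal, Ptgds had 25286.4 in heterozygous pool 2 and 10944.3 in heterozygous pool 1, and its log2 change was 0.40 without the former, which ended its call, and 1.61 without the latter. The Ptgds call on this probe set also ended without wild-type pool 1 (0.86). On another probe set Ptgds had 6624.2 and 6622.4 against 11446.3 and 11643.1 (log2 change 0.80, adjusted p = 0.00183), and on the remaining one the log2 change was 0.59 (adjusted p = 0.0258). That of Cdkn1c was 0.40 when heterozygous pool 1 was left out and 1.15 without heterozygous pool 2. The Cdkn1c call ended without that pool 1, and also without wild-type pool 2 (0.71). The calls of Bcl6 (-0.70) and Sesn1 (0.55) ended without heterozygous pool 2.

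**Figure D3:**
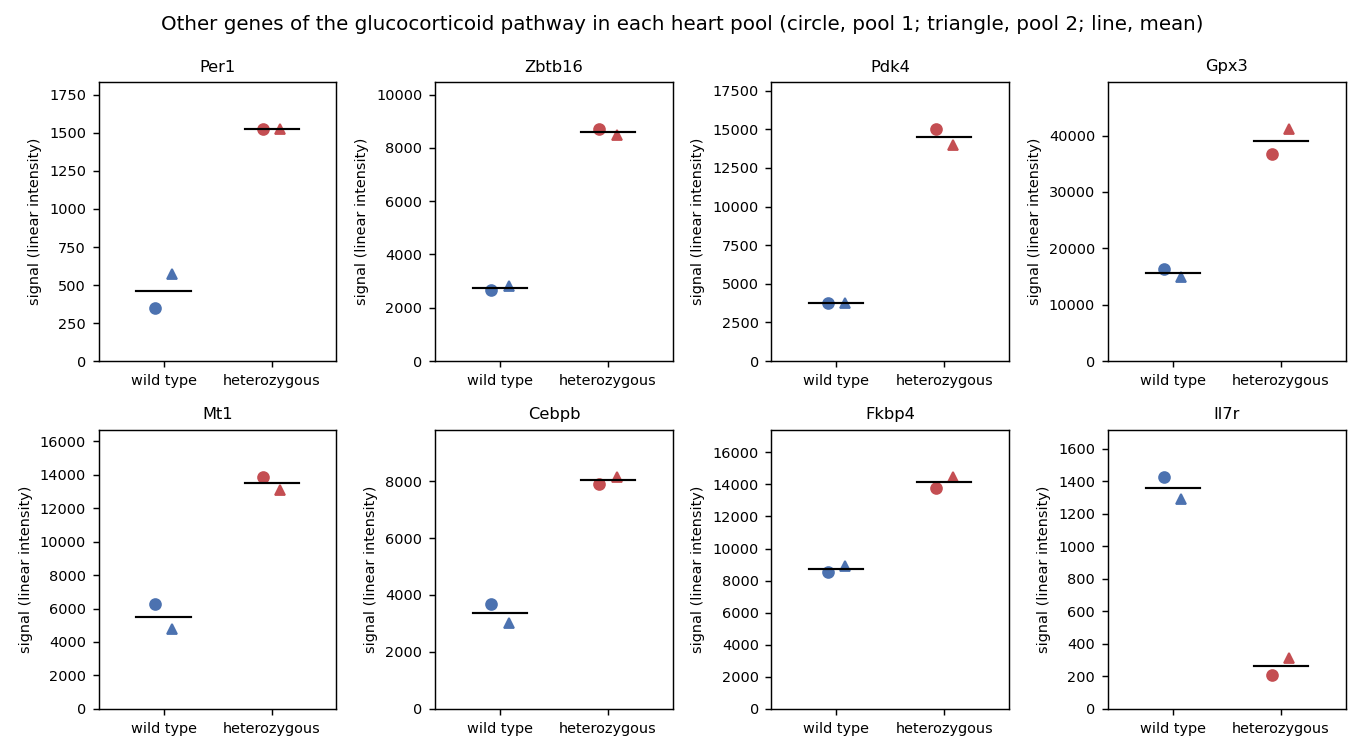
Linear signal of 8 further genes of the glucocorticoid pathway in every pool, wild type in blue and heterozygous in red, with circles for pool 1, triangles for pool 2 and a line at the mean of 2 pools. Per1, Zbtb16, Pdk4, Gpx3, Mt1, Cebpb and Fkbp4 are higher and Il7r is lower in both heterozygous pools. All 8 genes drawn were called at an adjusted p under 0.05 by limma, and genes of the pathway that did not pass are not drawn.

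Among 24 listed partners of the receptor 18 were tested, of which 3 were higher, 3 were lower and 12 did not pass (median log2 change -0.016). These shares are near those of all tested probe sets (17.9% higher and 20.4% lower), so the counts say nothing particular about the partners. Under sarcomere centring none was called higher and 12 were called lower. In that setting 183 of all 7453 tested probe sets were called higher and 4214 lower. Fkbp4 encodes FKBP52, which favours hormone binding and nuclear entry of the receptor and so opposes FKBP51. Wild-type pools gave signals of 8523.6 and 8937.7, and heterozygous pools gave 13768.3 and 14488.4. It rose 1.62-fold on this probe set (log2 change 0.69, SE 0.13, adjusted p = 0.00363) and had a log2 change of 0.60 on the other (adjusted p = 0.0154). Fkbp4 and Fkbp5 thus moved in opposite directions on the deposited scale. With arrays centred on the sarcomere genes Fkbp4 had a log2 change of 0.021 (adjusted p = 0.898), and without heterozygous pool 2 its call ended (0.66, adjusted p = 0.0548).

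Stub1, a ubiquitin ligase that works with HSP70 and HSP90, rose 1.63-fold. With arrays centred on the sarcomere genes its log2 change was 0.030 (adjusted p = 0.892). Smarca4, the BRG1 ATPase that opens chromatin for the receptor, fell 1.72-fold, and Dnajb1, an HSP40 co-chaperone, fell 1.79-fold. The Stub1 call ended without wild-type pool 2 (log2 change 0.54) or heterozygous pool 1 (0.52), and those of Smarca4 (-0.64) and Dnajb1 (-0.58) ended without heterozygous pool 2. Over the pools left out in turn, the median log2 change of these partners ran from -0.13 to 0.097. Hsp90aa1, an HSP90 gene, had a log2 change of -0.36 (adjusted p = 0.0728). Of the enzymes that set the supply of active hormone, Hsd11b1, which regenerates it inside cells, had signals of 1091.8 and 955.9 against 793.7 and 1220.8, and a log2 change of -0.054 (adjusted p = 0.885). Its sign turned under quantile normalization, cyclic loess, a common median and with arrays centred on the thymocyte genes, and also without wild-type pool 1 or heterozygous pool 1 (0.042 and 0.26). With arrays centred on the sarcomere genes Hsd11b1 was called lower (-0.73, adjusted p = 0.0315). Of 5 genes of this supply list 2 were tested and none was called by limma at an adjusted p under 0.05 on the deposited scale. Under sarcomere centring both were called lower, as were 4214 of all 7453 tested probe sets.

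Inflammatory genes that glucocorticoid holds down were mostly too dim to test. Of 23 listed, 5 were tested, of which 3 were lower and 2 did not pass. Of all tested probe sets 17.9% were called higher and 20.4% lower. The 2 genes that did not pass had changes in the other direction (log2 changes of 0.22 and 0.28). Ccl5, a chemokine made by T cells among others, fell 3.34-fold, from 3329.3 and 2671 to 954.9 and 836.8 (adjusted p = 0.000212). Vcam1, an adhesion molecule of vessels, fell 1.98-fold (adjusted p = 0.00209) on its brightest probe set, and its other 2 probe sets had log2 changes of -0.83 and -0.63 that did not pass. Icam1 fell 1.78-fold (adjusted p = 0.0252), a call that ended whichever pool was left out (log2 changes of -0.87 to -0.80). Lymphocytes also express Ccl5 and Icam1, and the part of the lower thymocyte and B cell markers in these values was not tested.

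Dusp1 is an immediate early gene. Of 17 tested genes of that class, 5 were higher, 6 were lower and 6 did not pass (median log2 change -0.16), beside 17.9% and 20.4% of all tested probe sets. Under sarcomere centring 2 were higher and 11 lower, beside 183 higher and 4214 lower of all 7453 tested probe sets. With a common median the list median was 0.022. Jun, a subunit of the AP-1 factor, rose 2.95-fold, from 466.2 and 579.3 to 1644.8 and 1431.3. Klf4, a relative of Klf9, rose 2.54-fold, and Ier3, a survival gene, rose 1.86-fold. Egr2, a zinc finger factor, fell 2.79-fold, from 1144.2 and 1413.6 to 388.7 and 532.7 (adjusted p = 0.00199). Fos and Jund, AP-1 genes as well, had log2 changes of -0.75 (adjusted p = 0.00971) and -0.62 (adjusted p = 0.0120). Egr1 (-0.61), Ier2 (-0.74) and Myc (-2.21) were also called lower, and Atf3 (1.00) and Klf6 (0.61) higher. The heterozygous mean of Myc (168) lay below the means of the untested Tsc22d3 (305 and 391). These further genes were named after their values were seen. Over the pools left out in turn, the median log2 change of the immediate early list ran from -0.23 to -0.11.

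Of 13 tested clock genes, the class with which Klf9 shares its daily rhythm, 6 were higher, 1 was lower and 6 did not pass (median log2 change 0.46), where 38.3% of all tested probe sets were called. Arntl, which encodes BMAL1, the activator of the clock, fell 3.65-fold, from 1419.9 and 1419.5 to 383.7 and 393.5 (adjusted p = 0.000287). Tef, an output of the clock, rose 2.07-fold, from 2066.6 and 2424 to 4024.2 and 5338.3 (adjusted p = 0.00255). Nr1d1, whose product represses Arntl, rose 2.03-fold (adjusted p = 0.00335), and Per1 rose as given above. The labels used here do not give the hour at which hearts were taken, and its part in the values of Klf9 and Per1 was not tested. With arrays centred on the sarcomere genes the median turned to -0.22, with 1 higher and 3 lower. Of all 7453 tested probe sets 183 were higher and 4214 lower in that setting. With no filter on dim probe sets none of the clock genes was called higher and 1 lower.

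**Figure D4:**
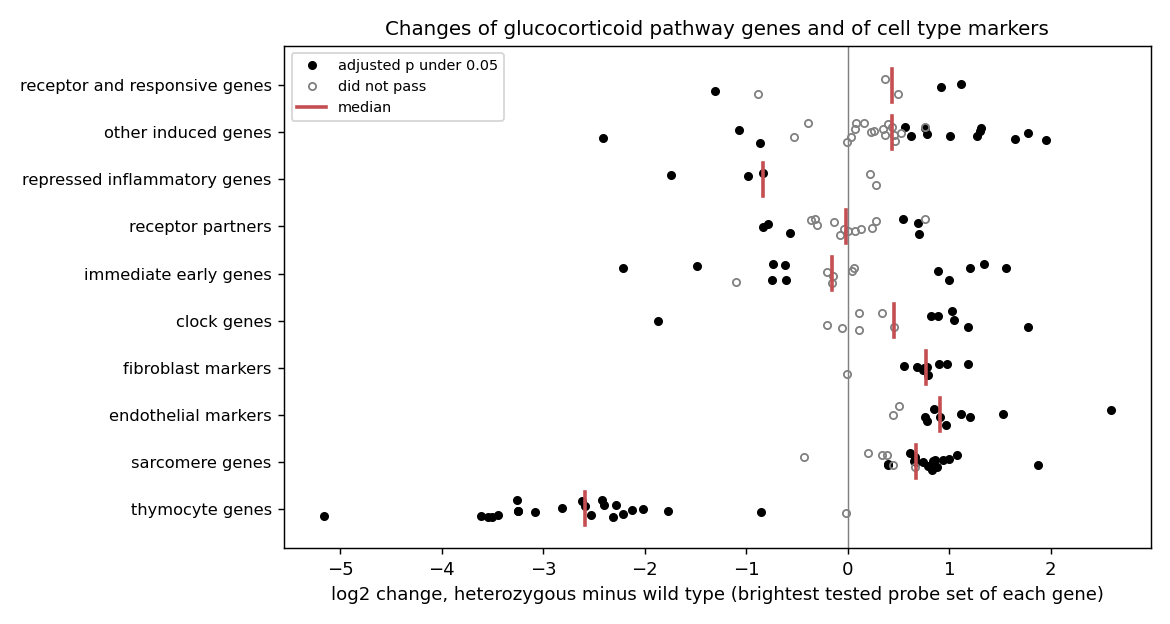
Log2 change (heterozygous minus wild type) of every tested gene of 10 groups, on the brightest tested probe set of each gene, with filled points for an adjusted p under 0.05, open points for genes that did not pass and a red bar at the median of the group. The receptor and responsive genes spread over both sides of 0, the other induced genes lie mostly to the right and the thymocyte genes lie to the left, with 22 of 23 called lower.

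The genes whose profile over the 4 pools was nearest to each of these genes were found by the root mean square difference of log2 signals, each centred on its own mean. For Klf9 they were Nnt, a mitochondrial transhydrogenase (0.034), and the clock output Tef (0.043). Nnt rose from 10997.6 and 11981.3 to 21475.2 and 27148.9. For Fkbp5 they were Eif4b, a translation factor gene (0.034), and Ctse, cathepsin E (0.036), each on 1 of several probe sets. The other tested probe sets of Ctse fell as well (log2 changes of -2.66 and -0.97), whereas that of Eif4b had -0.32 (adjusted p = 0.151). For Cebpd they were Lppos (0.014) and Mcee, an enzyme of propionate metabolism (0.018), which rose 1.86-fold and 1.93-fold. The Lppos call ended without heterozygous pool 1 or pool 2 (log2 changes of 0.89 and 0.90).

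For Nr3c1 the nearest were Zfp758, a zinc finger gene (0.020), and Kin, a DNA-binding protein gene (0.026). Zfp758 fell 1.85-fold, from 1514.5 and 1928.8 to 872.7 and 978.8, which no longer passed when wild-type pool 2 was left out (log2 change -0.71) or heterozygous pool 1 (-0.80). Kin had a log2 change of -0.84 (adjusted p = 0.0730), and its heterozygous mean (288) also lay below the means of the untested Tsc22d3 (305 and 391). For Sgk1 they were P4hb, a protein disulfide isomerase gene (0.0094), and Smarca2, a chromatin ATPase gene (0.017). For Dusp1 they were Foxl1, a forkhead gene (0.044), and Cacna1b, a neuronal calcium channel gene (0.053). None of these 4 passed on the deposited scale (adjusted p of 0.398, 0.116, 0.233 and 0.321). These likenesses describe 4 pools and were not tested.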

How the data were processed

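The deposited values are linear intensities of each probe set on each array. Per the labels, RNA was isolated with Trizol and a further phenol-chloroform step. The software that made the authors' intensity values was not given in the sources used here. Trimmed means (2% at each end) differed by at most 1.01 times between arrays, under the limit of 1.05, so values were used as deposited. Heterozygous pool 2 has no value for the 66 controls, which were removed. Intensities under the 10th percentile (36.4) were raised to it, which touched 16 of 29812 tested values, log2 was taken, and the dimmest 40% by mean signal were not tested. That mean was taken over all pools, so a probe set bright in a single genotype could pass. limma 3.58.1 (lmFit, eBayes with trend) in R 4.3.3 tested genotype over 7453 probe sets, with two-sided p-values adjusted by the Benjamini-Hochberg method and a threshold of 0.05. With 2 pools in each genotype, the smallest two-sided p of an exact permutation test is 0.333. The number of arrays limits the precision.

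A gene was represented by its brightest tested probe set. Named genes are the 7 genes, up to 4 changed genes with the smallest p of every pathway list, Per1, Fkbp4, Zbtb16, Pdk4, Hsd11b1 (Nr3c2 is not named on the array), the genes nearest in profile, and 2 genes nearest the median of the thymocyte and sarcomere lists. The members and lists were chosen with earlier results of these data known. Alternatives covered scaling, floor, filter, moderation, the pool number, each pool left out and the threshold. The fit was tested on simulated data, where 17.9% of 1.5-fold, 56.7% of 2-fold and 97% of 4-fold changes were called. Most changes of 1.5-fold were thus missed there, and a gene that did not pass is not shown to be unchanged. Only 67, 67 and 66 of 7453 probe sets carried these changes, a smaller share than was called in the data, so the rates may differ here. The gene in which the mice were heterozygous is not reported here. Plots were drawn with matplotlib 3.10.9.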

Additional observations from a re-analysis of the deposited data

How the results depend on the processing

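Fkbp5 was called lower under 19 of 20 alternatives and Cebpd higher under 19 of 20, the exceptions being the thymocyte centring and the sarcomere centring. The brighter Klf9 probe set kept its call under 19 of 20 and the dimmer one under 17. With arrays centred on the sarcomere list, log2 changes were -1.56 for Nr3c1 (now called), -0.31 for Sgk1, 0.19 for the dimmer Klf9 probe set, -0.17 for Dusp1 and 0.25 for Cebpd. Member calls then numbered 1 higher and 2 lower, those of the pathway lists (85 genes, 24 higher and 16 lower on the deposited scale) 8 and 41, and those of all probe sets 183 and 4214. The thymocyte median became -3.26 and, by construction, the sarcomere median -0.0047. The signs of the induced list (-0.24) and the clock list (-0.22) turned. So did those of Mt2 (-0.11), Sesn1 (-0.047), Klf6 (-0.065), Fkbp7 (-0.072), Fkbp9 (-0.20), Dusp16 (-0.029), P4hb (-0.31), Smarca2 (-0.28), Foxl1 (-0.18) and Cacna1b (-0.21). Myl3 (-0.0026) and Tnnc1 (-0.0069) belong to the list used for centring and lay nearest its median, so their small values follow from the centring. The calls of Fkbp4 (0.021), Stub1 (0.030), Lpin1 (0.085), Cdkn1c (0.11), Fkbp3 (0.11), Lppos (0.22) and Ier3 (0.22) ended there. Those of Tsc22d4 (0.24), Mcee (0.28), Ptgds (0.33), Nr1d1 (0.35), Tef (0.38) and Klf2 (0.53) ended as well.

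With arrays centred on the thymocyte list all changes rose together: Fkbp5 1.35, Sgk1 3.02 and Dusp1 3.16 were called higher, the medians were 0.13 (thymocyte) and 3.33 (sarcomere), and calls were 7 higher and 0 lower for members (with Tsc22d3 tested and Nr3c1 not), 82 and 0 for the pathway lists and 7278 and 36 for all probe sets. The signs then turned for the repressed list (1.82), Smarca4 (1.87), Dnajb1 (1.82), Il7r (0.25), Bcl6 (1.79), Ccl5 (0.92), Vcam1 (1.67) and Icam1 (1.82). They turned also for Egr2 (1.17), Arntl (0.79), Hsd11b1 (2.60), Klf10 (2.0), Dusp2 (1.77), Dusp11 (2.05), Zfp758 (1.77), Eif4b (1.38) and Ctse (1.41). Cd5 (0.067) and Ccr9 (0.037) belong to the list used for centring and lay nearest its median, so their small values follow from the centring. With a common median, Sgk1 passed (0.54), the median over everything tested went from 0.00 to 0.19, calls were 1944 higher and 1155 lower (1516 and 1341 under quantile normalization), and list medians were -2.41 (thymocyte) and 0.85 (sarcomere; 0.52 under cyclic loess). Hsd11b1 had 0.13 with a common median, 0.11 under quantile normalization and 0.047 under cyclic loess.

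With no filter on dim probe sets, the Klf9 calls ended (log2 changes of 1.12 and 0.87), leaving 1 member higher, 11 and 5 calls in the pathway lists and 482 and 723 among all probe sets. Without the trend 2 members were lower, with Nr3c1 (-0.89) added, as at an adjusted p under 0.10. At an adjusted p under 0.01, calls were 691 higher and 968 lower among all probe sets and 9 lower in the pathway lists.

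With the pool number as a replicate block, Dusp1 passed (0.50, adjusted p = 0.0179) and all calls went from 1337 higher and 1519 lower to 1445 and 1590. Pool 2 minus pool 1 correlated at 0.158 between genotypes over probe sets, but the labels do not pair the pools. Leaving out 1 pool gave 630 to 1125 higher and 1077 to 1166 lower calls among all probe sets, 2 to 4 higher and 1 lower among members, and 18 to 21 higher and 8 to 13 lower in the pathway lists. Over the left-out pools log2 changes ran from -1.04 to -0.74 for Nr3c1, from 0.22 to 0.51 for Sgk1, from 0.66 to 1.08 for the dimmer and 0.95 to 1.29 for the brighter Klf9 probe set, from 0.069 to 0.93 for Dusp1 and from -0.36 to 0.26 for Hsd11b1, whose sign turned without wild-type pool 1 (0.042) or heterozygous pool 1 (0.26). The causes of these differences were not tested.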

Other observations

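Relatives of these genes, taken by symbol, moved in both directions. Of 35 other FKBP, KLF, C/EBP, DUSP, TSC22 and steroid receptor genes on the array, 27 were tested, of which 10 were higher, 3 were lower and 14 did not pass, where 17.9% of all tested probe sets were called higher and 20.4% lower. Among FKBP genes 4 of 8 were higher (Fkbp3, Fkbp4, Fkbp7 and Fkbp9) and none was lower. Fkbp5 was thus the only tested member of its family called lower by limma on the deposited scale. Fkbp2 did not pass, but both its heterozygous pools lay below both wild-type pools (log2 change -0.41, adjusted p = 0.0801). Fkbp3, an FK506-binding protein of the nucleus, had wild-type signals of 1739 and 2252.5 and heterozygous signals of 3552.2 and 3275.5. Among KLF genes Klf2, Klf4 and Klf6 were higher and Klf10 was lower of 8 tested.

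In the C/EBP family Cebpb rose beside Cebpd, from 3691.9 and 3011.8 to 7913.5 and 8158.2, whereas Cebpa, a factor of liver and fat, had a log2 change of 0.32 (adjusted p = 0.123) and Cebpg one of -0.75 (adjusted p = 0.0865). Tsc22d4, a relative of the dim Tsc22d3, rose 1.89-fold, from 3474.4 and 4074.1 to 7693.3 and 6560.7 (adjusted p = 0.00238). Among phosphatase genes related to Dusp1, Dusp2, a phosphatase of activated lymphocytes, fell from 1818.6 and 1866.3 to 908 and 1100.4, Dusp11 fell and Dusp16 rose. The calls of Dusp11 (log2 changes of -0.69 to -0.53), Dusp16 (0.56 to 0.73), Fkbp7 (0.44 to 0.76) and Fkbp9 (0.36 to 0.58) ended whichever pool was left out. That of Fkbp3 ended without heterozygous pool 1 (0.73) or heterozygous pool 2 (0.84), and that of Klf10 without wild-type pool 1 (-0.65) or heterozygous pool 1 (-0.59). The Fkbp4 call ended without heterozygous pool 2 (0.66). The calls of Klf2 (0.75, 1.08 and 1.33) and Klf6 (0.49, 0.52 and 0.70) ended with wild-type pool 2 or either heterozygous pool left out. These genes were named after their values were seen.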
